A study of Mus musculus with 3 samples.

Results

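Tubulin isotype genes were examined in RNA bound to tagged ribosomes of deep cerebellar nuclei, through which the cerebellum sends its output. The set comprised 10 of the 32531 gene symbols in the count files, 3 alpha genes (Tuba1a, Tuba1b and Tuba4a) and 7 beta genes (Tubb2a, Tubb2b, Tubb3, Tubb4a, Tubb4b, Tubb5 and Tubb6), chosen by name. All 10 were present in each file. The 3 libraries form a single group of immunopurified (IP) samples from adult mice of the Htr6-TRAP NIDA113 line on a C57BL/6J background. The line makes an EGFP-tagged form of ribosomal protein L10a from a transgene named for the serotonin receptor gene Htr6, and translating ribosome affinity purification (TRAP) recovers the RNA on EGFP-bearing ribosomes. With no other genotype, treatment or unpurified tissue RNA analysed here, the comparisons are between isotypes within a library and between libraries. Whether a library stands for its own animal or for a pool is not stated, so the spread between libraries may be partly technical.

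Microtubules are built from dimers of 1 alpha and 1 beta tubulin protein, and each kind is encoded by several genes called isotypes. The isotypes share a nearly identical globular body and differ mainly in a short acidic tail at the carboxyl end, which lies on the outside of the microtubule, binds motors and associated proteins, and is modified by chains of glutamate. In the brain, Tubb3 is a widely used marker of neurons, Tuba1a is the main alpha gene of developing neurons, and Tubb4a is used by mature neurons and by oligodendrocytes. Mutations of the human TUBB4A gene cause a disease of myelin with loss of cerebellar tissue.

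The ends of the coding sequences show where the isotypes differ and where they do not. The last 60 coding bases, stop codon included, are given from the GENCODE M21 transcripts (mm10), 5′ to 3′, with in-frame GAA and GAG codons, which encode glutamate, in capitals. The ends of Tuba4a and 6 beta genes are shown.
Tuba4a: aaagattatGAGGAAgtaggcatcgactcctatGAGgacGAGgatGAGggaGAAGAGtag
Tubb2a: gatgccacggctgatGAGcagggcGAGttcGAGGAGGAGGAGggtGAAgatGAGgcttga
Tubb2b: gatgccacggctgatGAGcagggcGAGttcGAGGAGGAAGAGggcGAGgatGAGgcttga
Tubb3: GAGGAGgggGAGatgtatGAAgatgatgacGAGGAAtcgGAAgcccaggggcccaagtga
Tubb4a: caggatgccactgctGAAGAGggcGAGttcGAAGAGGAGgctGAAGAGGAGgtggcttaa
Tubb4b: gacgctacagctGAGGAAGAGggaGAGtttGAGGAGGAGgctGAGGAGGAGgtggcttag
Tubb5: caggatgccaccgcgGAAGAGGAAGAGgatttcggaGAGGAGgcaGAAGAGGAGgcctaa
Among these, 7 to 10 of the 19 codons before the stop codon encode glutamate, the most in Tubb4b. Tuba4a ends on gag before its stop codon, so its protein is made without the terminal tyrosine that enzymes remove from and return to many alpha tubulins. At the other end, Tuba4a begins with atgCGCGAGTGC (codons 2 to 4 in capitals), and the beta genes shown have atc as codon 4, like Tubb4a (atgCGGGAAATC). These opening codons are the part of the nascent protein that the factor TTC5 reads when cells adjust tubulin mRNA to the amount of free tubulin.

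Over the whole coding sequence, Tuba1a and Tuba1b were identical at 98.3% of aligned bases, and Tubb2a and Tubb2b at 96.5%. Those are the closest pairs of their families. Across the 21 pairs of beta genes, identity ranged from 80.2% to 96.5% with a median of 83.5%, while over the last 60 bases alone it ranged from 45.0% to 95.0% with a median of 60.3%. Tubb4a was 83.2% identical to Tubb4b, 83.9% to Tubb5 and 84.0% to Tubb2a, and its highest identity was 84.5%, with Tubb2b.

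This similarity bears on the counts, because reads that align to several places were not counted to genes. In replicates 1, 2 and 3, the count listed as multiply aligned made up 24.7%, 21.3% and 20.6% of all counts listed as assigned to genes, ambiguous, outside genes or multiply aligned. Whether a multiply aligned read was listed once or once per alignment is not known here. No source used here gives the read length, and each member's transcript was cut into overlapping windows of 75 bases and each window was searched, on both strands, in annotated transcripts of all other genes. Of Tuba1b windows 76.0% were shared with another gene, and of Tuba1a windows 56.3%, with several partners each. Of Tuba1b windows 53.4% occurred in Tuba1c and 44.3% in the long noncoding RNA AC157548.1, and of Tuba1a windows 39.9% in Tuba1c, 38.5% in AC157548.1, 38.5% in the pseudogene Gm17383 and 34.2% in Tuba1b. The corresponding shares were 43.2% for Tubb2a and 32.2% for Tubb2b, mostly with each other, and 37.8% for Tubb4b, mostly with its pseudogene Tubb4b-ps1 (33.7%). No 75-base window of Tuba4a, Tubb3, Tubb4a, Tubb5 or Tubb6 was shared. At 50 bases, the shared part rose to 82.2% for Tuba1b, 64.3% for Tuba1a and 50.9% for Tubb4b, and was 0.184% for Tubb4a. The counts of Tuba1a, Tuba1b, Tubb2a, Tubb2b and Tubb4b are therefore low by an amount the tables do not give, and levels per unique window are printed beside levels per exon base below. Nearly all shared windows lay in coding sequence, which holds 90.6% shared windows in Tuba1b and 52.5% in Tubb2a.

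**Figure D1:**
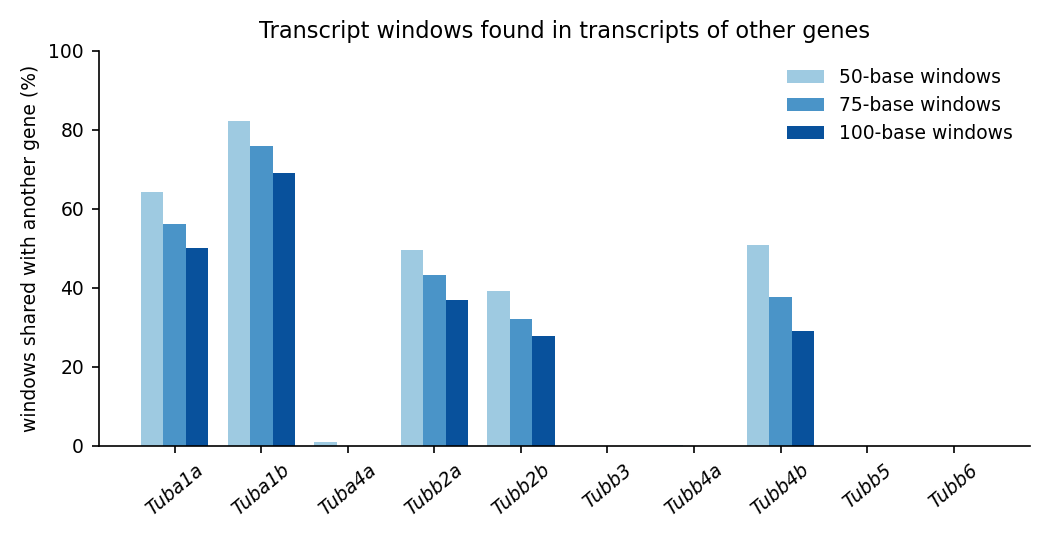
Percent of transcript windows (y axis) of each tubulin gene (x axis) that occur with identical sequence in an annotated transcript of another gene, for windows of 50, 75 and 100 bases (bar colours). Bars are highest for Tuba1b (76.0% at 75 bases) and Tuba1a, intermediate for Tubb2a, Tubb4b and Tubb2b, and at or near 0 for Tuba4a, Tubb3, Tubb4a, Tubb5 and Tubb6.

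In the mm10 annotation Tuba1a (ENSMUSG00000072235.6, minus strand, positions 98949837 to 98953703) and Tuba1b (minus strand, 98931425 to 98934565) both lie on chromosome 15. Tubb2a (minus strand, 34074274 to 34078007) and Tubb2b (minus strand, 34126748 to 34130466) both lie on chromosome 13. Tubb4a (ENSMUSG00000062591.5, minus strand, 57080066 to 57087782) and Tubb5 (minus strand, 35833921 to 35838306) share chromosome 17. Tuba4a is on chromosome 1 (minus strand, 75214228 to 75219865), Tubb4b on chromosome 2 (minus strand, 25222160 to 25224702) and Tubb3 on chromosome 8 (plus strand, 123411424 to 123422015). Each of the 10 representative transcripts has 4 exons and a coding sequence of 1335 to 1356 bases. The sequence after the stop codon differs far more, from 148 bases in Tubb4b, 194 in Tubb2a and 197 in Tuba1a to 624 in Tubb4a, 1061 in Tubb5 and 1394 in Tuba4a. Other genes are annotated over 4 members, and how reads in an overlap were assigned is not known here. Stk16, over part of Tuba4a, had 1, 27 and 25 counts, and Fam166a, over part of Tubb4b, had 0 counts in each library. Gm49450 overlaps Tuba1a and Tuba1b and Gm41396 overlaps Tuba1b, and neither is among the rows analysed here.

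Gene counts summed to 7695397 in replicate 1, 8842058 in replicate 2 and 7622010 in replicate 3. Levels within a gene are given as CPM (gene counts scaled to library sizes set by the TMM method). Comparisons between genes are given as RPKM, the same value per 1000 bases of annotated exon. The 10 isotypes together took 52681, 72868 and 58401 counts, which is 0.685%, 0.824% and 0.766% of all gene counts, or 7580 ± 652 CPM (SD, n = 3). A count of 0 in a library allows up to 0.397, 0.340 and 0.385 CPM, taking 3 counts as the limit. Such limits and the binomial intervals below cover counting error only. In RNA from a mixture of cells, fewer cells of a type and less RNA per cell cannot be told apart.

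Tubb4a made up nearly all of the beta tubulin signal. It had 43109, 61840 and 50502 counts in replicates 1, 2 and 3, or 5707, 7018 and 6481 CPM, and all 3 libraries lay within 1.23-fold of each other. Per exon length it stood at 2562, 3150 and 2909 RPKM (mean 2873 ± 296; SD, n = 3) and ranked 2, 2 and 1 among the 23161 genes with an annotated length. Of all counts on the 10 isotypes, Tubb4a held 81.8% (exact 95% binomial interval 81.5% to 82.2%), 84.9% (84.6% to 85.1%) and 86.5% (86.2% to 86.8%).

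The other beta isotypes were far lower. Tubb4b, a broadly expressed isotype that is also found in cilia, had 884, 762 and 306 counts, or 56.1, 41.4 and 18.8 RPKM. Tubb5, the general beta tubulin of dividing and many other cells, had 928, 799 and 716 counts, or 36.9, 27.3 and 27.6 RPKM. Replicate 3 was the lowest library for Tubb4b, while Tubb5 was highest in replicate 1 and nearly equal in the others. Tubb2a, the major beta gene of many adult neurons, had 438, 440 and 160 counts, or 36.0, 31.0 and 12.8 RPKM. Its close paralog Tubb2b, known for its part in neuron migration in the developing cortex, had 35, 94 and 166 counts, or 2.02, 4.65 and 9.29 RPKM. The libraries thus ran in opposite order for this pair of genes, with replicate 3 lowest for Tubb2a and highest for Tubb2b. Tubb3, the neuronal class III isotype, had 191, 467 and 393 counts, or 13.5, 28.4 and 27.0 RPKM, and replicate 1 lay apart below the other libraries. Tubb6 was counted in replicate 2 (138 counts) and replicate 3 (6 counts) and had 0 counts in replicate 1. Taking 3 counts as the limit for counting error alone, that 0 allows up to 0.00569% of the tubulin counts of replicate 1. At 2.25 ± 3.62 RPKM (SD, n = 3) Tubb6 rested on replicate 2, and it was the only member without at least 3 counts in every library.

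The alpha isotypes were closer to each other than the beta isotypes were. Tuba1a had 3853, 5158 and 3103 counts, or 283, 325 and 221 RPKM (mean 276 ± 52.2; SD, n = 3), and ranked 45 by mean RPKM among all genes. Tuba1b, the alpha isotype of most dividing and other cells, had 1732, 1269 and 1187 counts, or 122, 76.8 and 81.2 RPKM. Replicate 2 was the highest library for Tuba1a and replicate 1 the highest for Tuba1b. Tuba4a, the isotype without an encoded terminal tyrosine, had 1511, 1901 and 1862 counts, or 54.1, 58.3 and 64.6 RPKM, the narrowest range of the 10 genes in CPM (1.19-fold). On the CPM scale Tuba4a (218 ± 19.6) had the larger mean of these last 2 genes (Tuba1b 175 ± 47.0), but its annotated exons span 3701 bases against 1875.

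**Figure D2:**
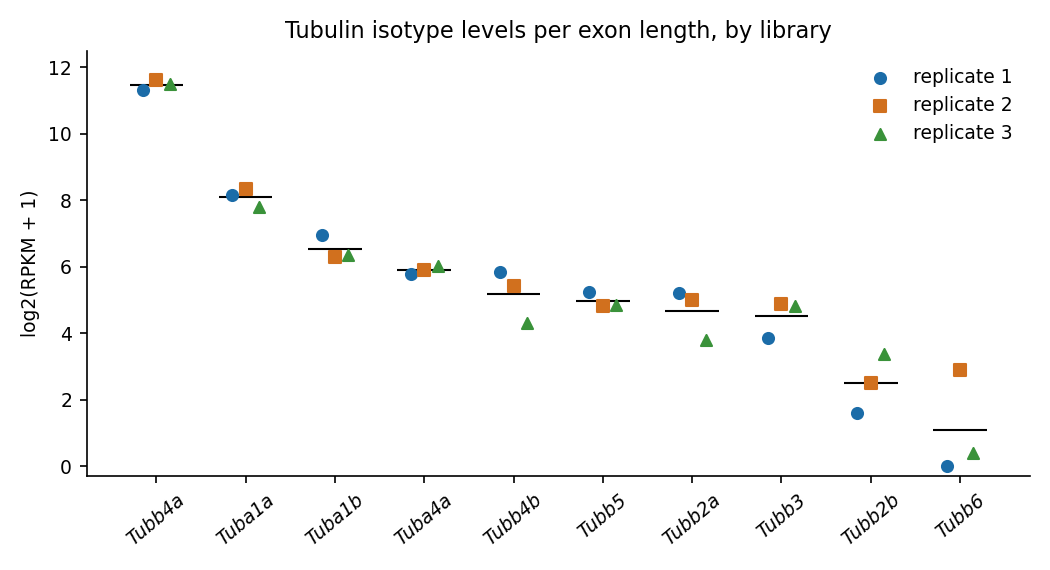
Level of each tubulin gene in each library as log2(RPKM + 1), with genes on the x axis ordered by mean RPKM, symbols for the 3 replicates and a black line at the mean of the log values. Tubb4a lies above all others (mean 2873 RPKM), Tuba1a follows (276 RPKM), and Tubb4b, Tubb5, Tubb2a and Tubb3 overlap. Tuba4a (54.1 to 64.6 RPKM) overlaps only Tubb4b, through replicate 1 (56.1 RPKM), while Tubb6 is at 0 in replicate 1.

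In the order of mean RPKM, only 4 of the 9 neighbouring pairs were apart by more than the spread of their within-library difference with the same gene higher in 3 of 3 libraries. These were Tubb4a over Tuba1a (3.39 ± 0.29 on the log2(RPKM + 1) scale; SD, n = 3), Tuba1a over Tuba1b (1.57 ± 0.45), Tuba1b over Tuba4a (0.63 ± 0.47) and Tubb3 over Tubb2b (2.03 ± 0.51). Between Tuba4a, Tubb4b, Tubb5, Tubb2a and Tubb3 no neighbouring pair held its order in all libraries. Tubb2a exceeded Tubb3 by 1.35 in replicate 1 and 0.12 in replicate 2, and was lower in replicate 3 (-1.03). Tubb2b and Tubb6, the lowest members, did not keep their order either, with a difference of 1.39 ± 1.69.

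As shares of the summed RPKM of the 7 beta genes, Tubb4a took 94.7%, 95.8% and 96.8% in replicates 1, 2 and 3 (mean 95.7% ± 1.08; SD, n = 3). Tubb4b followed with 1.32% ± 0.724, Tubb5 with 1.04% ± 0.287, Tubb2a with 0.899% ± 0.455 and Tubb3 with 0.754% ± 0.220, and these shares overlapped between genes. Tubb2b held 0.175% ± 0.121 and Tubb6 0.0686% ± 0.110. Levels per unique 75-base window divide the same counts by the number of unique windows, which assumes even coverage along the transcript. Coverage was not examined. These levels change both the length, from all exons to 1 transcript, and the part of it used. On the transcript alone the mean Tubb4a share was 95.1%, and per unique window it was 91.2%, 93.4% and 95.4% in replicates 1, 2 and 3. Tubb4b then held 2.73% ± 1.47 and Tubb2a 1.56% ± 0.775. Per exon base and per unique 75-base window alike, Tubb4a thus outweighed the other 6 beta genes together in every library.

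Of the summed alpha RPKM, Tuba1a took 61.6%, 70.6% and 60.2% (mean 64.2% ± 5.64), Tuba1b 26.6%, 16.7% and 22.2% (21.8% ± 4.97) and Tuba4a 11.8%, 12.7% and 17.6% (14.0% ± 3.14). Replicate 2 had the highest Tuba1a share and the lowest Tuba1b share. Per unique window the split between Tuba1a and Tuba1b was less steep, with Tuba1a at 56.0% ± 6.89, Tuba1b at 37.1% ± 6.93 and Tuba4a at 6.87% ± 1.65. On the transcript length alone, without removal of shared windows, the mean shares were 60.6%, 22.2% and 17.2%. The balance between Tuba1a and Tuba1b thus depends on how their shared windows are treated.

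**Figure D3:**
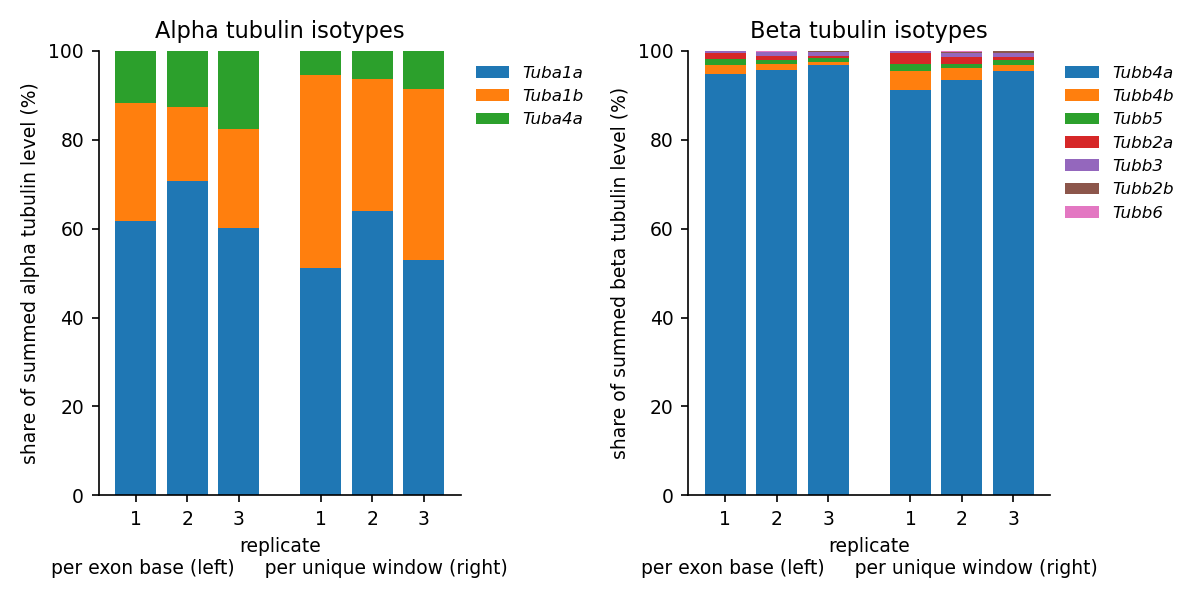
Stacked bars give the share (%) of each isotype in the summed level of the alpha (left panel) and beta (right panel) genes for replicates 1, 2 and 3, per exon base in the left 3 bars of a panel and per unique 75-base window in the right 3. Tubb4a fills 94.7% to 96.8% of the beta bars per exon base. Tuba1b widens from a mean of 21.8% to 37.1% of the alpha bars when the same counts are divided by unique windows only.

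Alpha and beta proteins are used in equal numbers in the dimer, but the RNA levels counted here, without multiply aligned reads, were unequal. The beta genes summed to 2706, 3289 and 3005 RPKM and the alpha genes to 459, 460 and 367 RPKM, a ratio of 7.08 ± 1.15 (SD, n = 3) with beta higher in 3 of 3 libraries. Per unique window the sums were 3182 ± 293 for beta and 1174 ± 166 for alpha, and the ratio was 2.20, 2.88 and 3.18 (mean 2.75 ± 0.499). The change of transcript length alone moved the log2 difference of alpha minus beta from -2.81 to -2.74, and the removal of shared windows to -1.44. With 50-base windows this difference was -1.13, and with 100-base windows -1.67. The direction was the same in all libraries, while the size of the excess was 7.08 per exon base and 2.75 per unique 75-base window. Because the read length is not known, the size of the excess is not settled. Windows shared with unannotated copies elsewhere in the genome were not searched.

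Within-library differences were tested for 8 pairs by flipping signs over the 3 libraries, an exact two-sided permutation test whose smallest possible p is 0.25. On the RPKM scale all 8 differences had the same sign in 3 of 3 libraries and reached this value (exact permutation p = 0.25, and 0.25 after Benjamini-Hochberg adjustment), so no difference could pass a threshold and sizes are read against the SD. Tubb4a exceeded Tubb3 by 6.97 ± 0.43 on the log2(RPKM + 1) scale (125-fold), Tubb2a by 6.82 ± 0.82 (113-fold), Tubb5 by 6.52 ± 0.38 (91.5-fold) and Tubb4b by 6.30 ± 0.86 (78.8-fold). Per unique window these excesses were 125-fold over Tubb3, 64.6-fold over Tubb2a, 73.8-fold over Tubb5 and 37.7-fold over Tubb4b. Tubb5 has no shared window, and its move matches that of the transcript length alone (a difference of 6.20 on the log2 scale). Tubb2a exceeded Tubb2b by 2.18 ± 1.62, but by 3.62 in replicate 1, 2.50 in replicate 2 and 0.42 in replicate 3, so the size of this difference was carried by replicates 1 and 2. Without division by length, Tubb2b was the higher gene in replicate 3 (21.3 against 20.5 CPM), and the exact permutation p was 0.5. Tuba1a exceeded Tuba1b by 1.57 ± 0.45 (2.96-fold), or 1.52-fold per unique window, and Tuba4a by 2.19 ± 0.38 (4.58-fold), or 8.17-fold per unique window.

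Members differed in how well the libraries agreed. The CV between libraries was 8.97% for Tuba4a, 10.3% for Tubb4a, 17.9% for Tubb5 and 18.9% for Tuba1a, and 26.8% for Tuba1b. It was 35.7% for Tubb3, 46.0% for Tubb2a, 48.4% for Tubb4b and 69.2% for Tubb2b. Of the 9 members that reached 10 counts in at least 2 libraries, 8 had a lower CV than the median of the 11168 genes tested (56.3%), and Tubb2b alone exceeded it. Tubb6 did not reach this minimum. That median spans genes of all levels, so the count does not set members against genes of like level.

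The spread of 9 of 9 tested members exceeded Poisson counting error (chi-square, Benjamini-Hochberg adjustment over all genes tested), as did that of 96.5% of all genes tested, so the count says nothing particular about tubulins. The adjusted p ranged from 8.24e-236 for Tubb4a, where counting error is smallest, to 1.62e-06 for Tuba4a. Without replicate 1, 6 of 9 members varied beyond counting error, as did 7977 of 9912 genes. By edgeR's quasi-likelihood dispersion, which sets each gene against others of its level, 0 of 9 members and 0% of all genes tested were called at an adjusted p under 0.05. At an unadjusted p under 0.05 these numbers were 0 members and 477 genes. By limma, 0 genes were called at an adjusted p under 0.05 and 521 at an unadjusted p under 0.05. The genes tested spread widely between libraries, with a common biological CV of 0.832 estimated by edgeR. A call of 0 genes is therefore not a sign that the libraries agree. The ratio of a member's dispersion to the trend was 0.0902 for Tuba4a, 0.173 for Tubb5, 0.766 for Tubb4a and 1.34 for Tubb4b, the only member above 1. Of all genes tested, 8.61% had a lower ratio than Tuba4a, 15.7% than Tubb5, 49.8% than Tubb4a and 67.7% than Tubb4b. A ratio of 1 is thus not the middle of the genes tested, and Tubb4a lay near that middle.

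The direction of these deviations was not shared by the family. Replicate 3 had the lowest level of Tuba1a, Tubb2a and Tubb4b, but the highest of Tuba4a and Tubb2b. Replicate 1 had the highest level of Tuba1b, Tubb2a, Tubb4b and Tubb5 and the lowest of Tuba4a, Tubb2b, Tubb3 and Tubb4a. Between its highest and lowest library Tubb2b spanned 2.20 log2 units of CPM, Tubb4b 1.58 and Tubb2a 1.50, against 0.30 for Tubb4a and 0.26 for Tuba4a.

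**Figure D4:**
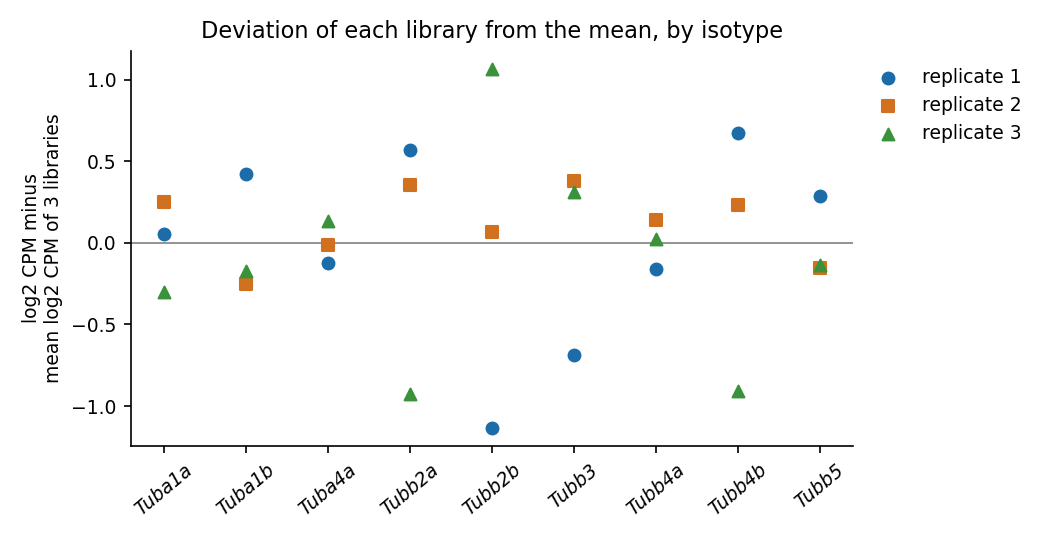
Log2 CPM of each library minus the mean log2 CPM of the 3 libraries (y axis) for the 9 tubulin genes counted in every library (x axis), with symbols for the replicates. Tubb4a and Tuba4a stay within 0.30 log2 units, while Tubb2a and Tubb2b spread widely with replicate 3 on opposite sides of 0.

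The 3 genes outside the family whose log2(RPKM + 1) values lay closest to those of Tubb4a over the 3 libraries were Vsnl1, Cdr1 and Snap25. Vsnl1, which encodes a neuronal calcium sensor, was at 2457, 2559 and 1941 RPKM, a Euclidean distance of 0.66 log2 units. Cdr1 stood at a distance of 0.85 with 4408, 3950 and 2856 RPKM, and without a stated strand setting its reads cannot be told apart from those of the circular RNA transcribed opposite to it. The synaptic fusion gene Snap25 stood at 0.93 with 2502, 2262 and 1679 RPKM. All of them were lowest in replicate 3, whereas Tubb4a was lowest in replicate 1. A likeness over 3 libraries rests mainly on the overall level.

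The counts on alpha and beta tubulin genes outside the set were low, and shared windows were not searched for these genes, so reads lost to paralogs are not sized here. Tuba8 had 66, 333 and 45 counts (7.70 ± 7.82 RPKM; SD, n = 3), with replicate 2 standing apart. Tuba1c, the third gene of the Tuba1 group and a main partner of the shared windows, had 12, 15 and 18 counts (0.816 ± 0.170 RPKM). Tuba3a, Tuba3b, Tubal3 and Tubb1, which are known from testis, gut and platelets, had no count in any library. Of the gamma, delta and epsilon tubulin genes, gamma tubulin Tubg1 was the highest at 50.3 ± 6.55 RPKM (752, 1000 and 1007 counts), a level near that of Tuba4a. Tubg2 was at 5.89 ± 5.32 RPKM, epsilon tubulin Tube1 had 2, 6 and 141 counts and delta tubulin Tubd1 6, 0 and 19.

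Levels of the genes that fold and assemble tubulin differed between groups. The median over 14036 genes that had 10 or more counts in all libraries together was 3.94 RPKM, and 58.2% of them had a mean of at least 10 CPM. All 8 subunits of the TRiC/CCT chaperonin, which folds newly made tubulin, had at least 10 CPM, with a median of 14.2 RPKM. The highest were Cct2 (33.4 ± 10.4 RPKM), Cct6a (32.8 ± 9.04 RPKM) and Cct5 (23.3 ± 9.77 RPKM). Of the 7 tubulin cofactor genes, which join alpha to beta, 4 had at least 10 CPM. Their median was 4.62 RPKM, and the smallest counts were those of Tbcc (0, 29 and 17) and Arl2 (13, 34 and 30). Prefoldin subunits, with a median of 4.18 RPKM, had 2 of 6 genes at 10 CPM, Pfdn2 (28.1 ± 23.0 RPKM) and Vbp1 (9.13 ± 4.59 RPKM), with Pfdn2 highest in replicate 2. Of 8 genes of the gamma-tubulin ring complex, 6 reached 10 CPM with a median of 2.41 RPKM, and Mzt1 was the highest at 22.9 ± 4.91 RPKM. Ttc5, the gene of the factor that reads the opening codons of tubulin, had 109, 108 and 3 counts, so replicate 3 lay far below the others.

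Enzymes that modify tubulin or sever microtubules were led by a few genes. Of 13 genes for glutamylation and glycylation, 7 had at least 10 CPM and 2 at least 100 CPM, and the median was 2.26 RPKM. These were Ttll7, which prefers beta tubulin (2584, 3761 and 2031 counts, 41.5 ± 10.1 RPKM), and Ttll5 (1738, 3630 and 2572 counts, 20.4 ± 5.74 RPKM). Ttll1, which acts with Tpgs1 on alpha tubulin, had 161, 936 and 151 counts, so it was high in replicate 2 only, and Ttll10 and Ttll13 had none in any library. On the opposing side, Agtpbp1, whose loss kills Purkinje cells in mice, was the highest of 6 deglutamylases at 15.4 ± 3.53 RPKM (2033, 2800 and 3273 counts), and Agbl1 had no count. For the terminal tyrosine, the ligase gene Ttl was at 5.07 ± 2.71 RPKM. The removing enzymes Vash1 (66, 86 and 51 counts) and Vash2 (235, 0 and 4 counts) were low or confined mostly to replicate 1. All 3 genes of tubulin acetylation reached 10 CPM, with the acetylase Atat1 at 18.1 ± 7.48 RPKM and the deacetylase Sirt2 at 15.6 ± 4.40 RPKM, while Hdac6 had 1, 322 and 129 counts. Among 8 severing enzymes, Katnal1 (20.9 ± 7.98 RPKM) and Spast (10.2 ± 3.27 RPKM) led, and Katna1 had 21, 2 and 0 counts.

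**Figure D5:**
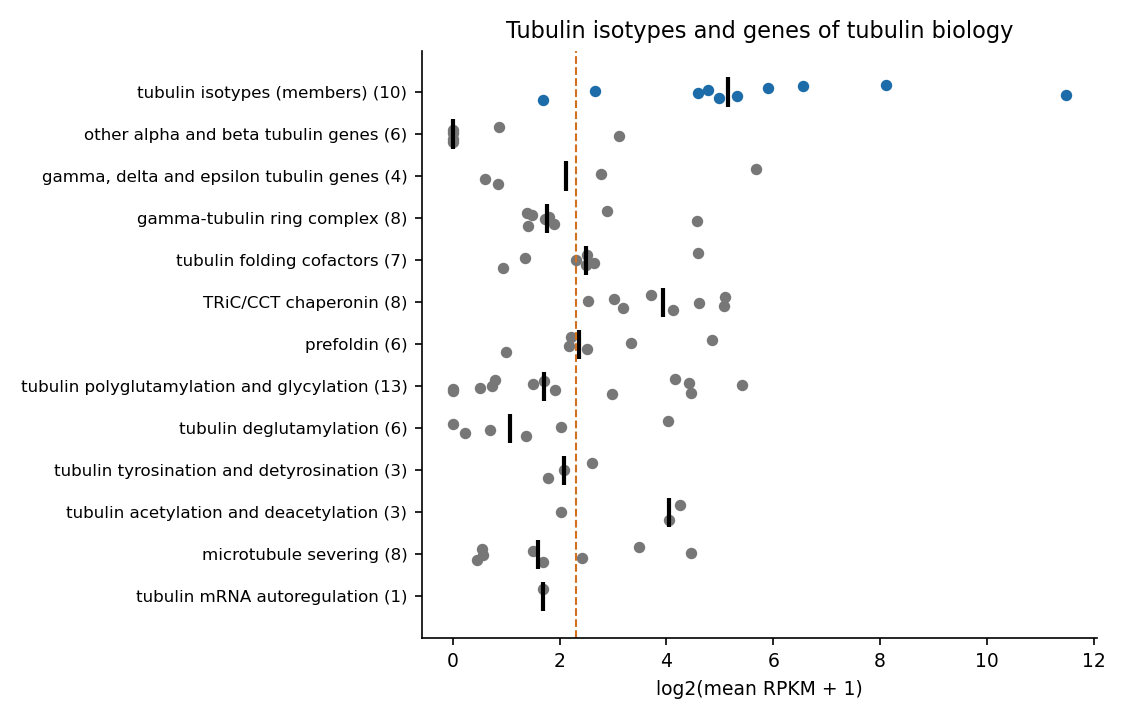
Mean level over 3 libraries as log2(mean RPKM + 1) (x axis) for each gene of the tubulin set (blue) and of the listed groups of tubulin biology (grey), 1 row per group with the number of genes in parentheses. Black lines are group medians and the dashed line is the median of genes with at least 10 counts summed over libraries (3.94 RPKM). The chaperonin and acetylation groups have medians of 14.2 and 15.6 RPKM, above that line.

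Markers of the cell types that could supply these tubulins were summed in each library. The 8 pan-neuronal genes were all at 10 CPM or more and summed to 25190.5, 23285 and 17135 CPM in replicates 1, 2 and 3. Most of each sum came from Snap25 (16989.5, 15364 and 11400 CPM), while Uchl1 had a mean of 37.6 CPM. The 7 markers of glutamatergic deep nuclei neurons summed to 738, 522 and 479 CPM with 5 at 10 CPM or more, the 9 granule cell markers to 3745, 4332 and 4292 CPM, and the 7 Purkinje cell markers to 5704, 7625 and 7040 CPM. Slc17a6, the glutamate transporter that defines the glutamatergic deep nuclei neurons, had 2978, 2264 and 1977 counts, while Tbr1, Lhx9 and Lhx2 had means of 10.4, 6.21 and 1.57 CPM. Most of the Purkinje cell sum came from Itpr1, Rgs8 and Car8 (3669, 1733 and 1154 CPM), and Pcp2, Ppp1r17 and Skor2 were far lower (27.6, 60.1 and 7.35 CPM). Oligodendrocytes also use Tubb4a, and 9 of their 10 markers had at least 10 CPM, with sums of 3528, 4063 and 3175 CPM. The 8 astrocyte and Bergmann glia markers summed to 1696, 1868 and 2286 CPM, most of it from Slc1a2 (1342 CPM on average). Microglial markers summed to 35.9, 37.0 and 19.8 CPM with C1qa, Aif1 and Trem2 at 0, and vascular markers to 50.6, 103 and 86.1 CPM with Cldn5 at 0. The part of any of these cell types in the isotype levels was not tested.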

How the data were processed

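Per the labels' protocols, RNA was immunopurified with anti-EGFP antibodies. The authors deposited 1 table of raw counts per gene symbol for each of 3 libraries; STAR 2.0.0e, HTSeq and the build mm10 were used per the submitters' processing notes. No source used here gives the annotation, strand setting or read length. HTSeq summary rows and the empty row "unknown" were left out of library sizes.

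CPM used TMM library sizes (edgeR 4.0.16, R 4.3.3). RPKM divided CPM by the union of exons in GENCODE M21 (mm10), matched by symbol (23161 of 32531). Shared windows came from exact matches between 1 coding transcript per member and transcripts of genes at other loci, since no genome sequence was used. Identity came from global alignment (Biopython 1.88; match 2, mismatch -1, gap -5 and -1). Spread was tested by a Poisson chi-square and by edgeR's quasi-likelihood dispersion over its trend, with Benjamini-Hochberg adjustment. The genes tested were the 11168 with at least 10 counts in at least 2 libraries. Both tests were also run on simulated counts that spread less between libraries than these counts, so that run does not size their power here. Alternatives were DESeq2 1.42.0 size factors, total counts, pseudocount 0.1 for 1, other lengths, no filter, robust estimation, limma 3.58.1 and leaving out each library.

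Members and lists were chosen with earlier results of these data known. Named genes outside the set are chiefly the 3 highest and 2 lowest by mean CPM of a list, members at 0, and the 3 nearest to Tubb4a; others were named after their values were seen. Svbp is not among the rows analysed here. Some coding sequence and 1 marker gene are not reported here.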

Additional observations from a re-analysis of the deposited data

How the results depend on the processing

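No paired analysis was possible because the 3 libraries form a single group with no other to pair with; isotypes were compared within libraries. Among the 8 tested pairs, no mean difference changed sign under another length or pseudocount. Library scaling and leaving out a library could not turn differences already of 1 sign. Other pairs did change order with length. By mean CPM, Tuba4a (218) exceeded Tuba1b (175) and Tubb5 (102) exceeded Tubb4b (80.9), the reverse of their order by mean RPKM. Per unique 75-base window, Tubb4b (85.4) exceeded Tuba4a (78.9) and Tubb2a (49.1) exceeded Tubb5 (39.5), again the reverse. Tubb6 fell from 5.48 to 0.385 CPM without replicate 2, and Tubb2b from 12.2 to 7.65 CPM without replicate 3. The share of Tuba1a in alpha RPKM (64.2%) was 56.0% with unique 75-base windows, 55.6% without length, 54.6% with 50-base windows and 57.8% with 100-base windows. The Tubb4a share of beta RPKM (95.7%) was 93.4%, 92.5% and 93.8% with 75-, 50- and 100-base windows. The 50- and 100-base lengths, and shares over all alpha and beta genes, were chosen after seeing the data. The count of all genes called by edgeR's dispersion test was 0, against 20 without a filter on low counts and 2 to 5 when a library was left out; the cause was not tested. Low counts limit Tubb6 and, in replicate 1, Tubb2b.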
